A study of Mus musculus with 66 samples.

Results

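The genes described here encode the chains of the collagens and laminins and the proteins that join them in the extracellular matrix. They were all genes on the later version of an Affymetrix mouse array, called Av2 in the labels, whose symbols begin as collagen or laminin chains do, together with Nid1, Nid2, Hspg2, Fbn2, Fbln1 and Fbln2. This gave 46 of the 8252 genes that had a probe set (a set of short oligonucleotides for 1 transcript) annotated to that gene alone. Of these, 31 were collagen chains and 9 were laminin chains. They had 67 probe sets, and where a gene had several, which was so for 15 genes, the brightest by its mean over all arrays was used. By role, 8 genes were fibrillar collagens, 7 were network collagens, 14 belonged to the basement membrane and 17 had other roles. Fbn1 and Fbln5 were not among the genes with a probe set of their own.

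The study followed mouse gastrocnemius, a calf muscle, after injury by cardiotoxin, a membrane-lysing peptide of cobra venom that kills muscle fibres. Total RNA from muscle was measured in untreated mice and at 26 times from 12 h to 40 d on Av2, with 2 arrays at each, 54 in all. A further 12 arrays of the earlier version, A, covered untreated muscle, 12 h and 1, 2, 4 and 10 d. The dose, 10 uM cardiotoxin in 100 ul, is given for 10 arrays and the age, 8 weeks, for 4 untreated arrays; strain, genotype and sex are not stated there. Whether both arrays of a time represent separate animals is not in the labels, and at 9 of the 26 times after injury on Av2 the titles of both carry the same number with different letters, so p-values measure only the spread between these arrays, which may be technical.

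Values are intensities, the brightness of a probe set on a linear scale. Median brightness over all probe sets lay between 301.4 and 362 on the Av2 arrays, and 76.4% to 83.4% of probe sets lay above 64.7, the floor to which lower values were raised before taking log2. The muscle label was matched by fibre markers in the 2 untreated arrays: Ckm, muscle creatine kinase, stood at 17244.6 and 19674.8 and Tnnt3, fast troponin T, at 54025.5 and 57947.5, although Myh2, a fast myosin heavy chain, was under the floor on both (33.3 and 32.1). On 7 Av2 arrays (replicate 2 of 12 h and all those of 1, 2 and 4 d) the ratio of the 3' to the 5' probe set of beta-actin, a sign of RNA or labelling quality, was 0.0184 to 0.0782. These include 5 of the 6 arrays from 12 h to 2 d. The same ratio for Gapdh, a second control gene, was 0.589 to 0.97 on those 7 arrays. It was low, at 0.0439 to 0.162, on other and later arrays. They were replicate 2 of 9.5, 12, 14 and 20 d, replicate 1 of 11, 16 and 40 d, and both arrays of 30 d. No fit left these later arrays out as a set. Version Av2 times were grouped into 6 windows, each compared with the same 2 untreated arrays with limma, and a call means an adjusted p under 0.05 over all 11997 probe sets tested.

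Fibrillar collagens of types I, III and V assemble into the banded fibrils of the connective tissue around muscle fibres, and fibroblasts make most of them. Around each fibre lies a basement membrane, in which laminin trimers of an alpha, a beta and a gamma chain and a net of type IV collagen are linked by nidogens and the proteoglycan perlecan. Laminin with the alpha 2 chain is the main laminin of adult muscle fibres, and loss of that chain or of a type VI collagen chain causes congenital muscular dystrophy. After cardiotoxin the basement membrane is largely left in place while the fibre inside it is cleared, and new fibres form within the old sheath.

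Promoter sequences of 4 collagen genes that rose are shown because 2 of them, Col6a1 and Col6a2, encode chains of the same trimer and moved together, while Col3a1 is a fibril chain and Col8a1 a short network chain. Each run is the 250 bases before the outermost RefSeq start of the gene (build GRCm38.p6), 5′ to 3′ on the strand of the gene. Col6a1 is at chr10:76726045-76726294 on the minus strand, Col6a2 at chr10:76623631-76623880 on the minus strand, Col3a1 at chr1:45311288-45311537 on the plus strand, and Col8a1 at chr16:57754738-57754987 on the minus strand. Capitals mark every match, on either strand, to the TATA box letters TATAAA, the CAAT box letters CCAAT, the GC box letters GGGCGG or the letters TGANTCA, which AP-1, the Fos and Jun factors, can bind; matches to different motifs did not overlap in these windows.
Col6a1: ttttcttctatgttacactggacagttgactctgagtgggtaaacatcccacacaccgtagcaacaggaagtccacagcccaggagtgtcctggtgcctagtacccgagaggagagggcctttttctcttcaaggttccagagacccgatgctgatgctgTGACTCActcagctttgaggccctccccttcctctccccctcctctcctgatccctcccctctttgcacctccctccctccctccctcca
Col6a2: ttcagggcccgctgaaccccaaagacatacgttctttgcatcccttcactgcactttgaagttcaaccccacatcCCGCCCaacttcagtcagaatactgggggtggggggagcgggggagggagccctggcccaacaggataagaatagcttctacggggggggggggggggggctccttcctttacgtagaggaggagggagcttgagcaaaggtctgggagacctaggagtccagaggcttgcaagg
Col3a1: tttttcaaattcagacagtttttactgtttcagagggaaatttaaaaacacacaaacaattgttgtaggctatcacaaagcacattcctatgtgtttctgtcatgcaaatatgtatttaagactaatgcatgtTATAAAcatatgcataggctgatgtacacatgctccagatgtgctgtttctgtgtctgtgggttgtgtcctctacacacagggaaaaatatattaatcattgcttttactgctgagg
Col8a1: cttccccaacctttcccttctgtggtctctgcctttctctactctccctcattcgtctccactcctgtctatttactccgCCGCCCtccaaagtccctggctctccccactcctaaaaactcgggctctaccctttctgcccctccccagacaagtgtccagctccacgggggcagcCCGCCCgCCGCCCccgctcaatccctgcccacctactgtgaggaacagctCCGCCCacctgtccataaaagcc
The Col6a1 window held 1 match to TGANTCA, 90 bases before the start, and was 56.0% G or C. The Col6a2 window held no TGANTCA but 1 match to GGGCGG, 175 bases before the start, and was 59.2% G or C. Col3a1 differed from the others in base composition, at 35.2% G or C, and held 1 TATAAA, 117 bases before the start. Col8a1, at 60.8%, held 4 matches to GGGCGG, the nearest 23 bases before the start. RefSeq windows were found for 31 of the 46 genes. GGGCGG was found in 16 of them (51.6%) and in 33.0% of all 27025 windows, CCAAT in 10 (32.3%) and in 34.5%, TATAAA in 5 (16.1%) and in 13%, and TGANTCA in 1 (3.23%) and in 6.85%. Col6a1 and Col6a2 thus shared none of these 4 motifs in this window; a match is no more than a run of letters.

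Over the whole series of times, 32 of the 45 genes tested (71.1%) changed by limma's F test at an adjusted p under 0.05, where 48.7% of all probe sets did; Col22a1 was above the floor on too few arrays to be tested. Those that changed were 7 of 8 fibrillar collagens, 4 of 7 network collagens, 12 of 14 basement membrane genes and 9 of 16 others. From 12 h to 2 d, 6 genes rose and 6 fell (background 17.7% higher and 18.5% lower), which is no more than over all probe sets. The early rises were Col18a1, Lama5, Col4a1, Col8a1, Fbln2 and Col5a2, and the falls Lama2, Col4a5, Col1a1, Lamb2, Lamb1 and Col14a1. With probe sets averaged the rise of Lama5 was lost (log2 0.41), as were the falls of Col1a1 (−0.40) and Lamb1 (−0.15). Without the low beta-actin arrays only 12 h replicate 1 is left in that window, so that time and array quality change together and the array is assumed to vary like those of other times; Col18a1 (log2 1.44), Lama5 (1.21) and Col4a1 (1.14) stayed called there while the other 3 rises did not. From 3 to 4.5 d, 20 rose and 3 fell (background 22.2% and 18.5%), and from 5 to 7.5 d, 25 rose and 1 fell (19.0% and 16.1%). The same number rose, 25, from 8 to 10 d with 1 that fell (16.9% and 13.8%), and from 11 to 16 d 24 rose and 1 fell (13.9% and 10.2%). From 20 to 40 d, 19 still stood above the untreated arrays by the test and none below (5.01% and 2.12%). Median log2 change over all 46 genes, with the untested Col22a1 counted, went from −0.20 through 0.37, 0.70, 0.73 and 0.72 to 0.41 over the 6 windows, against 0.00 to 0.03 for all probe sets tested. These 6 comparisons share their untreated arrays, of which replicate 1 was the higher in 28 of the 41 genes with both above the floor. Without untreated replicate 2 the number that rose from 20 to 40 d was 9, and without replicate 1 it was 17.

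**Figure D1:**
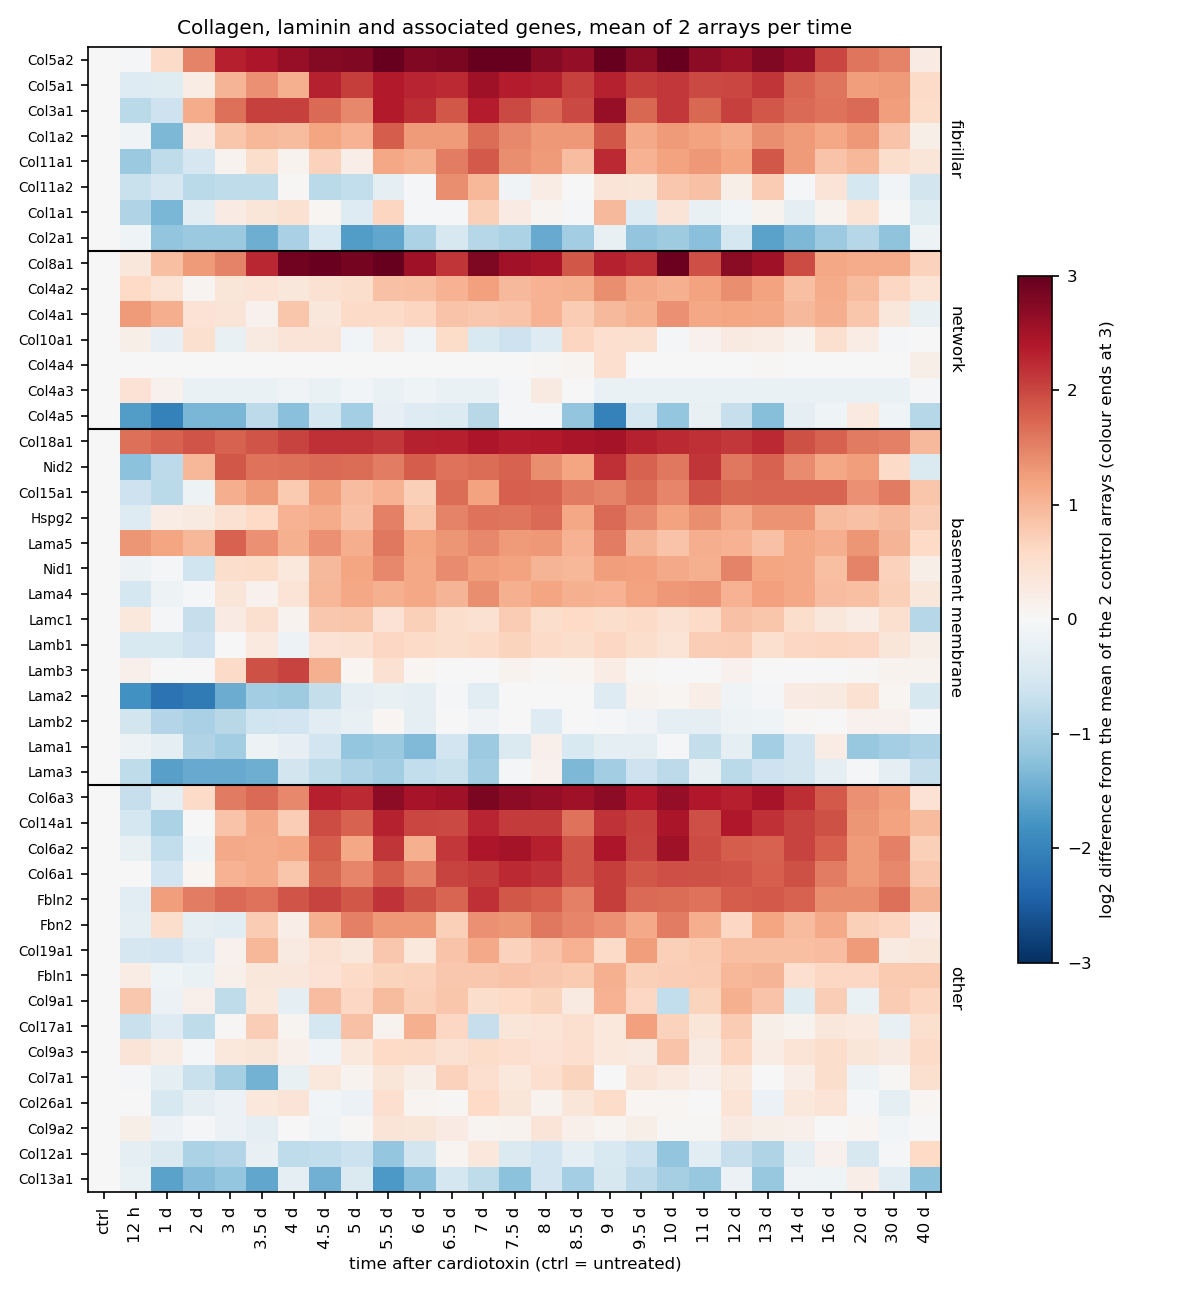
Each row is 1 of the 45 tested genes, grouped by role, and each column a time; colour gives the mean log2 intensity of 2 arrays minus that of the 2 untreated arrays, after values were raised to the floor. Red bands from about 3 d in the fibrillar, type VI and basement membrane rows, the early red block of Lamb3 and the early blue of Lama2 are the patterns described in the text.

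Among the fibrillar collagens the chains of types III and V and the type I alpha 2 chain rose, and the largest rise was that of Col5a2. From 5 to 7.5 d, 5 of 8 rose, Col2a1 fell, and Col1a1 and Col11a2 were not called; the median log2 change was 1.31. Col5a2, a type V chain that sets fibril diameter, was 3657.0 and 1847.8 on the untreated arrays and ranged from 16716.3 through a median of 19151.2 to 29090.4 over the 12 arrays of that window. All 12 lay above both untreated arrays, a 7.95-fold rise (log2 2.99, SE 0.19, limma adjusted p = 1.5e-13). Its partner Col5a1 was 1953.2 and 1499.0 untreated and 7131.9, 8521.9 and 10887.5 at the lowest, median and highest array, a 4.96-fold rise (log2 2.31, SE 0.13, limma adjusted p = 2.2e-14) with no overlap. Col3a1, the fibril chain of loose and healing tissue, went from 6984.2 and 3544.9 to 13012.4, 20804.0 and 27710.7, a 4.10-fold rise (log2 2.04, SE 0.24, limma adjusted p = 5e-08). Here too the lowest injured array was above the higher untreated array. Col1a2, the type I alpha 2 chain, went from 12944.7 and 8295.7 to 20650.0, 26622.0 and 37648.3, a 2.69-fold rise (log2 1.43, SE 0.19, limma adjusted p = 4e-07), again without overlap.

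Col1a1, the alpha 1 chain that supplies most of each type I trimer, did not pass the test from 5 to 7.5 d on its brightest probe set: untreated arrays read 29881.0 and 15831.8 and injured arrays 15657.6, 25848.5 and 41073.8 (log2 change 0.18, SE 0.27, limma adjusted p = 0.67). Injured arrays thus spread over both sides of the untreated pair. Earlier, from 12 h to 2 d, the same probe set fell by 0.87 on the log2 scale (7818.9, 11851.2 and 19537.9; limma adjusted p = 0.015), a call lost without untreated replicate 1 (limma adjusted p = 0.46) and without the low beta-actin arrays (0.42). Its other, dimmer probe set rose from 4721.7 and 4327.0 to 7480.5, 9178.5 and 13454.4 from 5 to 7.5 d (log2 1.07, limma adjusted p = 4.2e-05). For Col1a2 the disagreement went the other way: the dimmer probe set fell by 1.01 from 3 to 4.5 d and by 0.47 from 5 to 7.5 d, both past the test, while the brighter probe set rose. So the size and even the direction of the type I response depend on the probe set, and Col1a2 with its probe sets averaged had a log2 change of −0.01 from 3 to 4.5 d.

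**Figure D2:**
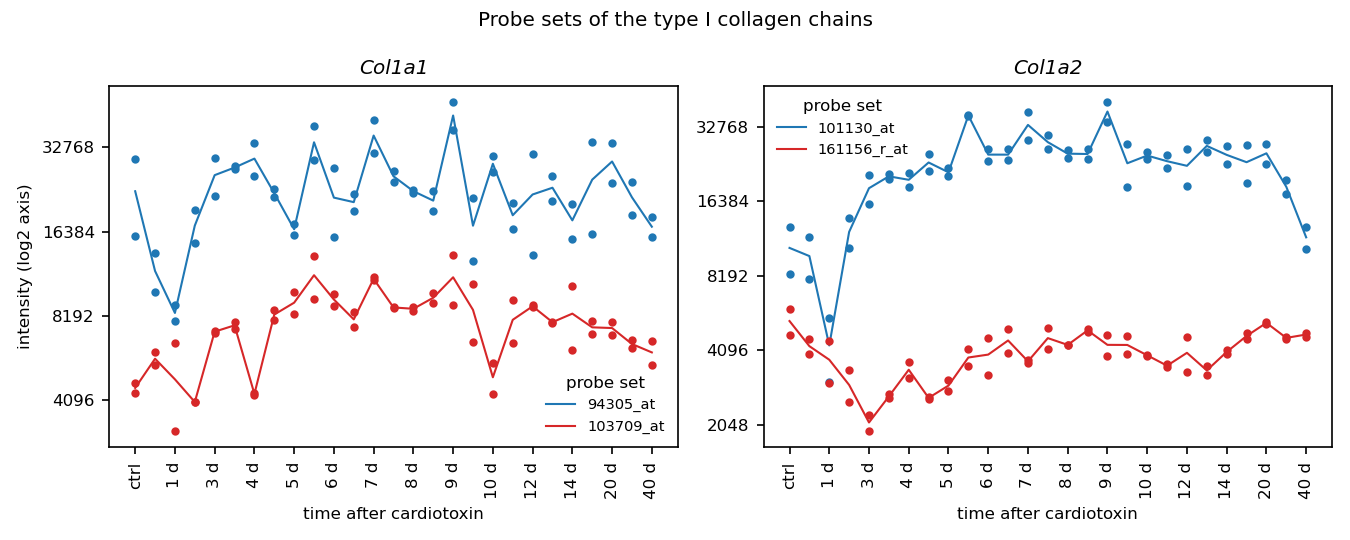
Intensity (log2 axis) of the 2 probe sets of Col1a1 and of Col1a2 against time; points are single arrays and lines the means of 2 arrays. The brighter Col1a1 probe set scatters on both sides of its untreated pair while the dimmer one stands above its own at 5 to 7.5 d, and by 3 d Col1a2 is up on its brighter and down on its dimmer probe set.

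Col11a1, a minor fibrillar chain best known from cartilage, was 314.8 and 216.9 untreated and 298.5, 690.0 and 1369.5 from 5 to 7.5 d (log2 1.20, SE 0.43, limma adjusted p = 0.03). Its groups overlapped there and not from 8 to 10 d (378.2, 600.2 and 1446.5; log2 1.33, limma adjusted p = 0.019), and both calls were lost without either untreated array. Col2a1, the main cartilage collagen, was dim throughout and fell from 284.2 and 230.2 to 41.6, 122.7 and 203.4 from 5 to 7.5 d (log2 −1.08, limma adjusted p = 0.042), a call also lost without either untreated array. Col11a2, a second minor chain, was called in no window, with its highest mean, 302.4, at 6.5 d against 112.0 and 115.3 untreated.

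Chains of type VI collagen, which forms beaded filaments that tie the basement membrane to the fibrils, rose together. From 8 to 10 d Col6a3 went from 4795.6 and 3077.0 to 17738.2, 23205.9 and 27039.3, a 5.98-fold rise (log2 2.58, SE 0.13, limma adjusted p = 8.3e-15). Col6a2 went from 2786.5 and 2117.4 to 8024.6, 11650.0 and 14567.5 (log2 2.24, SE 0.26, limma adjusted p = 6e-08), and Col6a1 from 4769.6 and 3620.5 to 13754.2, 16510.1 and 19288.0 (log2 1.99, SE 0.14, limma adjusted p = 1.5e-12). In none of the 3 did an injured array of that window reach down to the untreated ones. None of the 3 had risen from 12 h to 2 d, when the log2 changes were −0.13, −0.36 and −0.17 (limma adjusted p = 0.55, 0.36 and 0.43). All 3 chains rose past the test in each of the 5 windows from 3 d on, ending at log2 changes of 1.03 for Col6a3 and 1.17 for both others from 20 to 40 d.

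Among the other matrix genes, Col14a1, which binds to the surface of fibrils, fell by 0.50 from 12 h to 2 d (limma adjusted p = 0.048, overlapping, and lost without either untreated array) and then rose. From 11 to 16 d it was 1079.2, 1477.4 and 2110.6 against 327.4 and 348.7 untreated (log2 2.09, SE 0.19, limma adjusted p = 6.6e-10). Fbln2, a fibulin of basement membranes and elastic fibres, was among the first to move: it was 2239.8 and 2195.7 untreated, 1573.5 and 1939.8 at 12 h, 5076.6 and 5555.6 at 1 d, and 5667.7 and 7287.6 at 2 d. Both 12 h arrays were thus below both untreated arrays and all 4 arrays of the next 2 times well above. All 4 of those, however, are among the arrays with a low beta-actin ratio. From 5 to 7.5 d Fbln2 was 6773.0, 8275.7 and 11037.9 (log2 1.95, SE 0.14, limma adjusted p = 2.5e-12). Fbln1, its relative, rose from 1256.8 and 1619.1 to 2035.2, 2353.2 and 2896.1 (log2 0.74, SE 0.11, limma adjusted p = 3.8e-06), without overlap. Fbn2, a fibrillin of young microfibrils, rose from 114.3 and 99.7 to 217.3, 294.5 and 425.1 from 8 to 10 d (log2 1.42, SE 0.43, limma adjusted p = 0.011), a call lost without either untreated array. Of the remaining genes of this group Col19a1 rose from 5 to 16 d, at log2 changes of 0.69 to 0.89 that were not called without untreated replicate 1 (0.43 to 0.63), and the other 8 tested passed no test against untreated muscle in any window. They were dim or varied: the cartilage and fibril-associated chains Col9a1, Col9a2, Col9a3 and Col12a1, the transmembrane chains Col13a1 and Col17a1, the anchoring fibril chain Col7a1 and Col26a1 had their highest means between 260.9 (Col17a1 at 9.5 d) and 1169.9 (Col7a1 at 6.5 d). For Col12a1 a dimmer probe set did rise from 5 to 7.5 d (43.0 and 91.2 to 64.6, 173.9 and 339.0; log2 1.15, limma adjusted p = 0.014).

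Network collagens split. Col8a1, a short chain of vascular and other membranes, was 923.8 and 406.9 untreated and 2598.0, 3885.7 and 5684.8 from 5 to 7.5 d, a 6.35-fold rise (log2 2.67, SE 0.21, limma adjusted p = 1e-11) without overlap. The main type IV chains moved much less. Col4a2 went from 4258.0 and 3204.8 to 4988.8, 6800.9 and 9110.1 (log2 0.93, SE 0.16, limma adjusted p = 2.3e-05), and Col4a1 from 6332.2 and 3494.9 to 6671.6, 7443.1 and 9599.9 (log2 0.71, SE 0.15, limma adjusted p = 0.00022). For Col4a1 this call was lost without untreated replicate 2 (log2 0.28, limma adjusted p = 0.24). By time Col4a1 was 10395.0 and 12640.4 at 12 h, 5196.5 and 5056.1 at 3.5 d and 12003.6 and 12192.2 at 10 d, before 4672.1 and 3507.9 at 40 d. It was therefore high at both 12 h and 10 d with a trough between, in which both arrays lay between the 2 untreated ones. Over 12 h to 2 d it was 6022.9, 9488.7 and 12640.4 (log2 0.94, limma adjusted p = 1.3e-05), where Col4a2 had a log2 change of 0.36 (limma adjusted p = 0.11); the difference between these chains was not tested there, and 5 of these 6 arrays have the low beta-actin ratio. Col4a5, of a less common type IV trimer, was dim and fell from 328.0 and 212.8 to 40.8, 73.2 and 108.7 from 12 h to 2 d (log2 −1.70, SE 0.40, limma adjusted p = 0.0011), with all injured arrays below both untreated ones; the call was lost without untreated replicate 1 (0.053) and without the low beta-actin arrays (0.16). Col4a3 and Col4a4, chains of the kidney and lung type IV net, were above the floor on 11 and 6 of the 54 arrays. Col10a1, of growth plate cartilage, was 101.8 and 109.1 untreated and had its highest mean, 165.3, at 8.5 d. Its lowest mean, at 7.5 d, lay below both untreated arrays. None of these 3 genes changed by the F test. Over all 7 network genes 3 rose from 5 to 7.5 d, none fell and the median log2 change was 0.00.

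**Figure D3:**
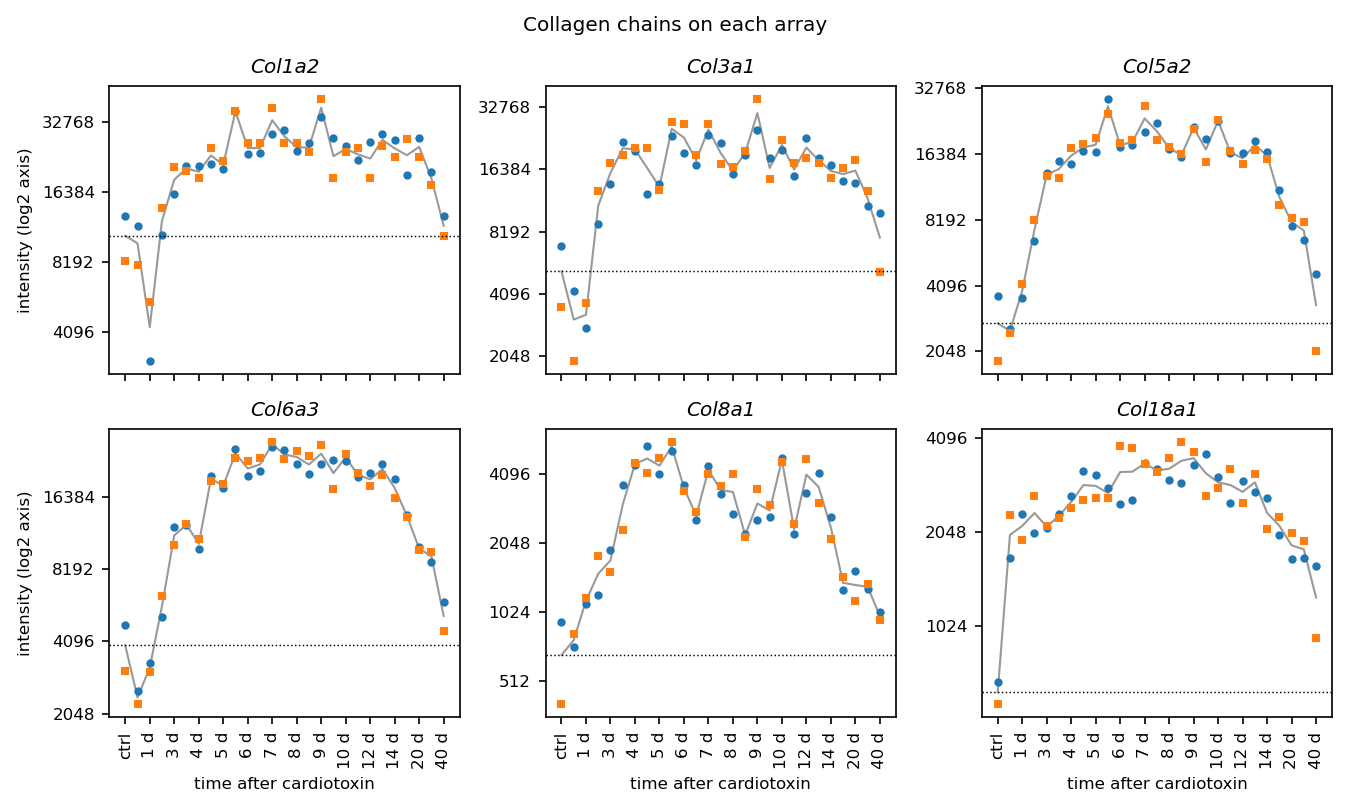
Intensity of 6 collagen chains on each Av2 array against time, in time order and not to scale in days; circles are replicate 1, squares replicate 2, grey lines the means and dotted lines the untreated mean, and each panel has its own log2 axis. Col18a1 stands high from 12 h, the other chains shown climb between 1 and 5 d, and all come down toward 40 d.

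In the basement membrane 9 of 14 genes rose from 5 to 7.5 d and none fell, with a median log2 change of 0.89, and Col18a1 rose most. Col18a1, whose end is cleaved to endostatin, was 681.4 and 578.4 untreated and already 1698.5, 2181.4 and 2681.1 from 12 h to 2 d (log2 1.78, SE 0.19, limma adjusted p = 8.1e-09). By 8 to 10 d it was 2672.3, 3229.0 and 3992.8 (log2 2.37, limma adjusted p = 1.2e-11), so that every injured array of both windows was above both untreated arrays. Col15a1, its relative at the outer face of the muscle basement membrane, was later: it was not called from 12 h to 2 d (log2 −0.52, limma adjusted p = 0.062). It rose from 3 to 4.5 d (log2 1.10, limma adjusted p = 8e-05), a call lost without untreated replicate 2 (0.065). From 11 to 16 d it reached 2318.6, 2911.1 and 3568.6 against 1195.6 and 619.9 untreated (log2 1.77, SE 0.21, limma adjusted p = 1.1e-07). Hspg2, which encodes perlecan, rose from 1937.1 and 1789.6 to 3491.5, 4925.9 and 7628.0 from 8 to 10 d (log2 1.44, SE 0.18, limma adjusted p = 2.8e-07), without overlap.

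Nidogens link the laminin and type IV nets. Both rose from 3 to 4.5 d. Nid2 was 229.7 and 193.2 untreated and 639.0, 679.1 and 786.8 from 3 to 4.5 d (log2 1.71, SE 0.21, limma adjusted p = 7.2e-08). Nid1 rose by 0.60 in that window (limma adjusted p = 0.024, lost without untreated replicate 1), and from 184.1 and 252.6 untreated it reached 388.8, 523.4 and 647.5 from 5 to 7.5 d (log2 1.28, SE 0.21, limma adjusted p = 7.9e-06). Nid2 from 3 to 4.5 d and Nid1 from 5 to 7.5 d had no injured array within reach of the untreated ones. Both were called from 11 to 16 d (log2 1.62 for Nid2 and 1.16 for Nid1), but from 20 to 40 d Nid2 was no longer called (log2 0.46, limma adjusted p = 0.24), while Nid1 was (log2 0.79, limma adjusted p = 0.025, lost without untreated replicate 1).

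Laminin alpha chains went in different directions. Lama2, the alpha chain of adult muscle laminin, was 1467.8 and 1447.5 untreated and 250.4, 322.8 and 692.8 from 12 h to 2 d (log2 −2.05, SE 0.23, limma adjusted p = 1.7e-08). It was 497.2, 702.4 and 942.2 from 3 to 4.5 d (log2 −1.08, SE 0.22, limma adjusted p = 0.00018), and from 5 to 7.5 d it no longer differed past the test (log2 −0.20, limma adjusted p = 0.55). All 14 arrays up to 4.5 d lay below both untreated arrays. Lama4, the alpha chain of vessels, nerve and young muscle, was not called from 12 h to 2 d, rose by 0.47 from 3 to 4.5 d (limma adjusted p = 0.0055, lost without untreated replicate 2) and then rose further, from 1267.9 and 1224.3 to 2256.8, 2744.4 and 3431.4 from 5 to 7.5 d (log2 1.15, SE 0.13, limma adjusted p = 2.5e-08). Lama5, of vessels and epithelia, was 157.8 and 402.9 untreated and 477.6, 647.7 and 871.4 from 3 to 4.5 d (log2 1.40, SE 0.22, limma adjusted p = 5.6e-06), with no overlap. Its untreated arrays differed more than 2-fold, and without replicate 1, the lower, it was not called in 4 of the 6 windows, at log2 changes of 0.30 to 0.49. Its other probe set had negative log2 changes in all 6 windows, from −0.34 (12 h to 2 d) to −1.50 (20 to 40 d), none past the test. With probe sets averaged Lama5 was called in no window. Its log2 change was then 0.46 from 3 to 4.5 d, 0.28 from 5 to 7.5 d and −0.26 from 20 to 40 d. Lama1 and Lama3 passed no test in any window.

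Among the beta and gamma chains Lamb1, the common beta chain, was 1028.3 and 1046.8 untreated and fell by 0.51 from 12 h to 2 d (limma adjusted p = 0.00099). Its dimmer probe set did not fall there (log2 0.22, limma adjusted p = 0.48), and with probe sets averaged the call was lost (log2 −0.15, limma adjusted p = 0.47). The brighter probe set then rose to 1365.0, 1534.1 and 1707.0 from 5 to 7.5 d (log2 0.57, limma adjusted p = 0.00016). In that later window the dimmer probe set rose by 1.67. Lamc1, the gamma chain shared by most laminins, rose from 1198.9 and 1261.7 to 1516.4, 1816.1 and 2246.5 (log2 0.62, SE 0.18, limma adjusted p = 0.0055), a call lost without untreated replicate 1 (0.078). Lamb2 and Lamb3 were singled out after their values were seen. Lamb2, the beta chain of the neuromuscular junction, fell from 900.2 and 1014.3 to 423.9, 570.2 and 730.1 from 12 h to 2 d (log2 −0.80, SE 0.16, limma adjusted p = 0.00013), with no overlap. Without the low beta-actin arrays the log2 changes of Lamb1, Lamb2 and Lama2 on the remaining 12 h array were −0.41, −0.39 and −1.07, so that time and array quality changed together.

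Lamb3, a chain of the epithelial laminin of skin, was the only one of the 45 tested genes that rose in 1 window alone. It was 63.0 and 40.5 untreated, both under the floor. It was then 92.3 and 99.8 at 3 d, 272.7 and 218.9 at 3.5 d, 308.2 and 222.5 at 4 d, 163.3 and 112.7 at 4.5 d, and 67.6 and 66.9 at 5 d. All 8 arrays from 3 to 4.5 d lay above both untreated arrays, a rise of at least 2.63-fold when the untreated arrays are taken at the floor (log2 1.39, SE 0.12, limma adjusted p = 4.6e-11). It fell again by 1.32 from 3 to 4.5 d to 8 to 10 d (limma adjusted p = 1.3e-14). A second Lamb3 probe set was not called. Lama3, the chain it pairs with in that trimer, had a log2 change of −1.07 from 3 to 4.5 d that did not pass the test (limma adjusted p = 0.094).

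**Figure D4:**
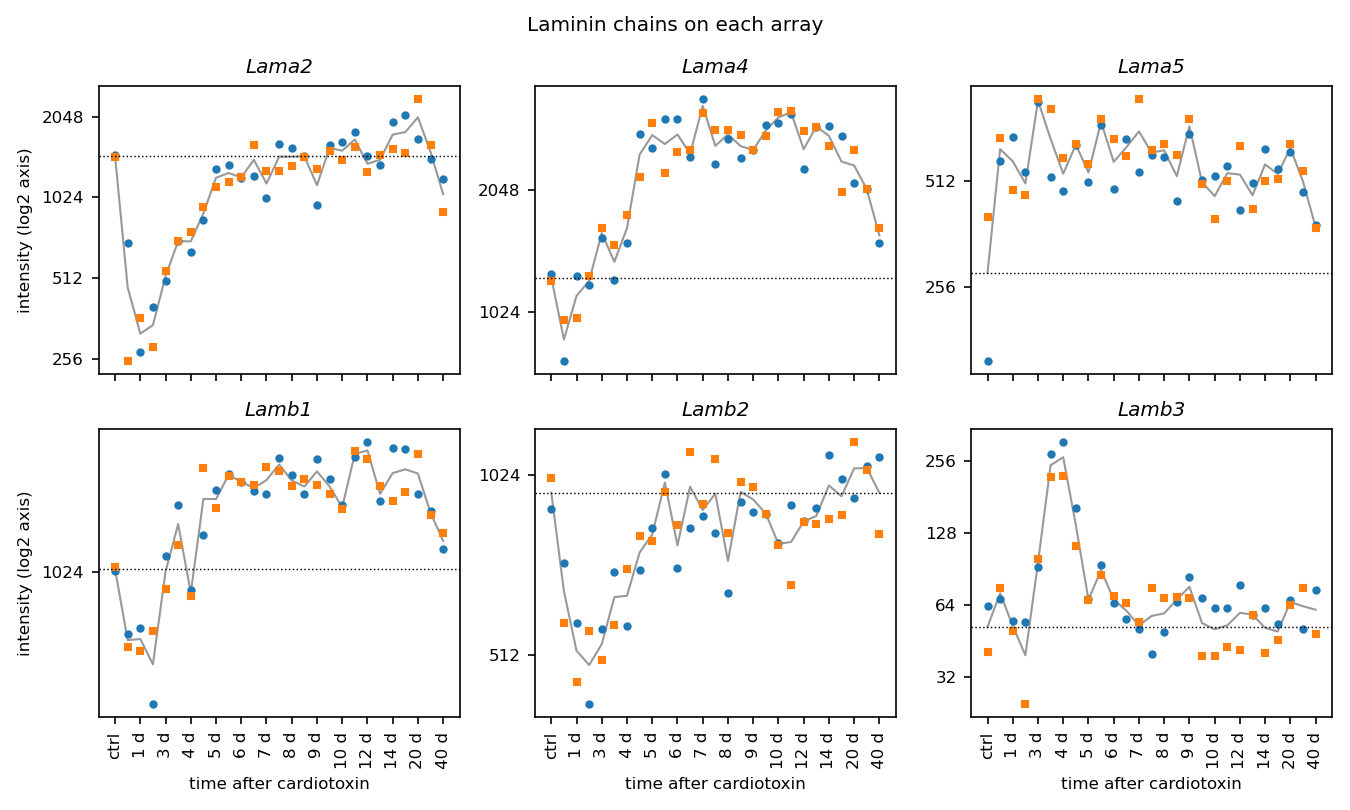
Intensity of 6 laminin chains on each Av2 array against time, drawn as for the collagens, each panel with its own log2 axis. Lama2 is lowest at 1 d and from 5 d stands close to its untreated level; Lama4 climbs at 4 to 5 d, and Lamb3 stands out between 3 and 4.5 d.

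Late and early regeneration were then compared directly, without the untreated arrays. From 3 to 4.5 d to 8 to 10 d, 23 genes rose and 1 fell (background 13.7% higher and 17.3% lower), with a median log2 difference of 0.37. Those that rose were 5 fibrillar, 2 network, 8 basement membrane and 8 other genes. From 8 to 10 d to 20 to 40 d, 19 fell and 1 rose (background 16.3% lower and 14.6% higher), namely 5 fibrillar, 3 network, 5 basement membrane and 6 other genes that fell, and Col4a5, which rose. Col5a2 fell by 1.74 (limma adjusted p = 5.5e-12), Col6a3 by 1.55 (2.6e-14) and Col8a1 by 1.39 (2.8e-09). By day, Col5a2 was 7633.1 and 8324.5 at 20 d, 6590.0 and 8016.0 at 30 d and 4607.3 and 2050.7 at 40 d. Col6a3 was 10161.9 and 9828.3, then 8803.0 and 9682.2, then 5949.8 and 4509.0 at the same times. Col3a1 was 14145.9 and 18196.6, then 10851.9 and 12892.2, then 10132.9 and 5206.8. At 40 d 1 array of each of these 3 genes lay within the range of the untreated pair. Counted over the 45 genes, both arrays were above both untreated arrays in 26 genes at 20 d, 24 at 30 d and 16 at 40 d, where 24.5%, 23.9% and 26.7% of all probe sets were.

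Pairs were taken of chains that assemble together or replace each other, and of the fibrillar Col1a1 with the type IV chain Col4a1. They were compared as the log2 difference of the 2 chains on each array, early (3 to 4.5 d, 8 arrays) against late (8 to 10 d, 10 arrays). The exact two-sided permutation test over 43758 arrangements was used, with adjustment over the 10 pairs. The change of that difference is given, since levels of different probe sets cannot be set against each other. This test takes single arrays as exchangeable, although they come as 2 at each time. At some of the early times both titles also carry the same number. Its p-values therefore do not measure the spread between times and may be too small. Lama2 gained on Lama5 by 1.28 (adjusted exact p = 0.00091) and on Lama4 by 0.34 (0.029), the latter lost when any of 5 single arrays was left out: either 3 d array, or replicate 1 of 4.5, 8 or 8.5 d. Nid1 gained on Nid2 by 0.62 (adjusted exact p = 0.0075). Col1a1 lost 0.46 against Col1a2 (adjusted exact p = 0.013) and 0.70 against Col4a1 (0.014). With the window edges moved only Lama2 against Lama5 was still called: the others were 0.25 for Lama2 against Lama4, 0.27 for Nid1 against Nid2, −0.29 for Col1a1 against Col1a2 and −0.58 for Col1a1 against Col4a1 (adjusted exact p = 0.142, 0.232, 0.175 and 0.142). For the rest no change was called: Col5a1 against Col5a2 moved by 0.41 (adjusted exact p = 0.052, and under 0.05 without either array of 4.5 d or of 10 d), Col1a1 against Col3a1 by −0.24 (0.091), Col6a1 against Col6a2 by −0.13 (0.21), Col4a1 against Col4a2 by −0.13 (0.44) and Lamb1 against Lamb2 by −0.03 (0.79). A p over the threshold does not show that such chains kept the same ratio.

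**Figure D5:**
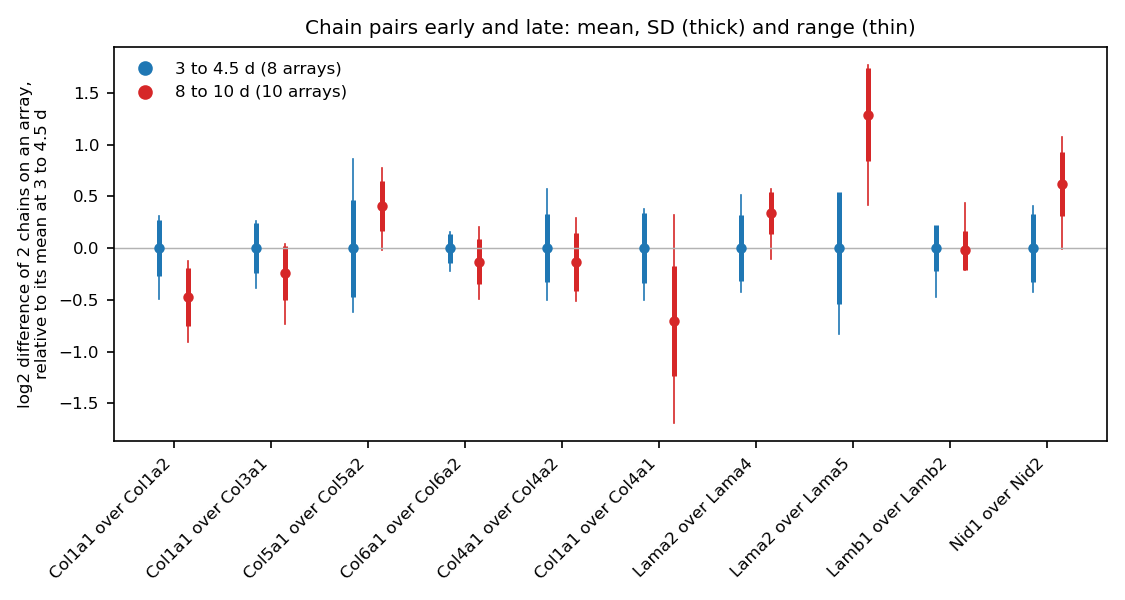
For each of 10 chain pairs, the log2 difference of the 2 chains on an array, set to 0 at its mean from 3 to 4.5 d; points are means, thick bars 1 SD and thin bars the range, over 8 early (blue) and 10 late (red) arrays. The late mean of Lama2 over Lama5 lies 1.28 above the early mean, while that of Lamb1 over Lamb2 lies −0.03 from it.

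The earlier array version gave a second set of late and early arrays. Untreated and 12 h arrays carry the same codes on both versions, but those of 4 and 10 d do not, so 10 d was compared with 4 d. On version A 11 of 26 genes tested rose from 4 to 10 d and none fell (background 4.41% higher and 5.65% lower), with a median log2 difference of 0.49. Lama2 was 991.5 and 1101.0 at 4 d and 2158.6 and 3008.2 at 10 d (log2 1.29), and Col6a3 was 6960.9 and 8113.0 at 4 d and 17585.5 and 17653.2 at 10 d (log2 1.23), both past the test of limma and with both late arrays above both early ones. Col14a1 rose by 1.31, Col6a2 by 1.28, Col5a1 by 1.20, Col6a1 by 1.18, Col15a1 by 1.11, Nid1 by 1.09, Lamb2 by 0.87, Lama4 by 0.86 and Lamb1, on its other probe set, by 0.74. Among genes not called, the differences were 0.40 for Col5a2, 0.26 for Col18a1, 0.14 for Col8a1, −0.06 for Col3a1 and −0.20 for Fbln2. With 1 of these 4 arrays left out, the number that rose was 7 or 5 without replicate 1 or 2 of 10 d and 6 or 5 without replicate 1 or 2 of 4 d. Against its own untreated arrays version A had 12 genes up and 2 down at 4 d (background 22.9% and 23.0%) and 17 up and none down at 10 d (13.3% and 13.2%). At each of these times the log2 change had the same sign on both versions in 22 of 26 genes. The same share over all probe sets was not computed. Because the untreated arrays carry the same codes on both versions, these changes may also share a baseline. Some signs rest on values near the floor of version A: Nid2 changed by 0.05 and 0.07 there, against 1.66 and 1.58 on Av2. Hspg2 was called at neither time on version A, on the same probe set as on Av2. Its log2 changes were 0.27 at 4 d and 0.41 at 10 d, against 1.03 and 1.20 on Av2.

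Genes that fold, modify and cross-link collagen rose with the chains. Of 18 tested from 5 to 7.5 d, 13 rose and 1 fell, with a median log2 change of 1.10 (over all probe sets 19.0% rose and 16.1% fell). Lox, the oxidase that starts cross-links, rose most, from 430.8 and 223.2 to 2320.1, 4890.6 and 7764.2 (log2 3.80, limma adjusted p = 6.6e-15). Serpinh1, the collagen chaperone HSP47, rose by 1.84, Ppib, a prolyl isomerase, by 1.69 and Crtap, of the prolyl 3-hydroxylation complex, by 1.68, and Mia3, which loads procollagen into vesicles, fell by 0.73. From 12 h to 2 d, 7 of the 18 had already risen and 1 had fallen (over all probe sets 17.7% and 18.5%). Of 10 receptors for collagen or laminin 4 rose: Mrc2, which takes up collagen fragments, rose by 3.18, Ddr2, a fibrillar collagen receptor, by 0.67, Itga7, the laminin receptor of muscle fibres, by 0.50 and Itgb1, the shared beta chain, by 0.33. Itgb4, of epithelial anchoring junctions, fell by 1.62. With arrays scaled to a common median, only 1 of these receptors rose past the test.

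Markers of fibroblasts, macrophages, new myotubes and muscle fibres moved over the same times, and in whole muscle fewer cells of a type and less RNA per cell cannot be told apart. Over all probe sets 17.7% rose and 18.5% fell from 12 h to 2 d. These shares were 22.2% and 18.5% from 3 to 4.5 d, and 19.0% and 16.1% from 5 to 7.5 d. Of 13 fibroblast markers none rose and 5 fell from 12 h to 2 d, and 7 rose and 3 fell from 3 to 4.5 d. From 5 to 7.5 d 7 rose and 1 fell, with a median log2 change of 0.95. Thy1 rose by 2.20, Lum by 1.76, Mfap5 by 1.51 and Fap by 1.47, and Dcn, decorin, fell by 0.61. The summed level of these markers was 38986.3 and 42963.9 untreated and 29971.9 to 41017.9 from 12 h to 2 d. From 3 to 4.5 d it was 28069.8 to 37709.5, below both untreated arrays, and from 5 to 7.5 d it was 38901.5 to 49481.4. All 12 macrophage markers rose both from 12 h to 2 d and from 5 to 7.5 d, with a summed level of 9991.7 and 14395.2 untreated, 60295.3 to 91504.9 from 5 to 7.5 d and 15706.7 to 24716.0 from 20 to 40 d. Markers of new myotubes rose in 7 of 8 from 5 to 7.5 d. Muscle fibre markers fell in 6 of 12 from 12 h to 2 d, when their summed level was 102383.9 to 219112.9 against 239537.8 and 292188.0 untreated, and in 3 of 12 from 5 to 7.5 d, with Ckm at −1.48. Of the other lists from 5 to 7.5 d, 2 of 10 endothelial markers rose and 1 fell, 2 of 8 smooth muscle and pericyte markers rose and 2 fell, and 1 of 6 Schwann cell markers rose and 1 fell, shares near those over all probe sets (19.0% higher and 16.1% lower). The part of these cells in the matrix values was not tested.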

How the data were processed

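The deposited values of 66 Affymetrix MG-U74 arrays were used as given. By their range the deposited values are intensity on a linear scale; how the authors made them is not given in the sources used here. The 2% trimmed mean was the same on every array within 0.0108% (version Av2) or 0.337% (version A). Values were raised to a floor (64.7 on Av2, 646.8 on A) and put on the log2 scale. Probe sets with at least 2 arrays above the floor were tested, 11997 of 12488 on Av2 and 4742 of 12654 on A, without the maker's 66 control probe sets. All time groups entered 1 limma fit (limma 3.58.1, R 4.3.3; Python 3.11.15), with Benjamini-Hochberg adjustment over all probe sets tested; the fit was tested on simulated data. The number of arrays limits the precision.

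Genes and lists were chosen with earlier results of these data known. Full statistics are given for up to 6 genes per role with the largest called change in any window and for 11 fixed genes, and for up to 4 genes per list. Arrays with the same number at different times did not deviate together. Over 153 pairs of times the correlations were −0.168 to 0.161 (median 0.003), so numbers were not taken as pairs across times. The check used only the 18 groups whose arrays carry different numbers. It left out the 9 times at which both titles carry the same number, so it cannot show whether the arrays within those times are independent. Alternatives were other scaling, floors, filters, blocks, windows and baselines, averaged probe sets, arrays with a low beta-actin ratio left out, and each array left out in turn.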

Additional observations from a re-analysis of the deposited data

Results flagged for a closer look

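The change from untreated muscle differed between 3 to 4.5 d and 8 to 10 d, by limma's test of that difference over all probe sets, in 24 genes. This is the late and early comparison counted above, in which 13.7% of all probe sets were higher late and 17.3% lower. On the log2 scale the fibrillar chains that were higher late were Col11a1 by 0.98, Col11a2 by 0.93, Col5a1 by 0.73, Col1a2 by 0.39 and Col5a2 by 0.33, and the network chains Col4a2 by 0.75 and Col4a1 by 0.63. Basement membrane genes that were higher late were Lama2 by 1.03, Lama4 by 0.69, Hspg2 by 0.65, Nid1 by 0.53, Col15a1 by 0.49, Lamb2 by 0.42, Col18a1 by 0.41 and Lamb1 by 0.40. Other matrix genes that were higher late were Fbn2 by 0.99, Col7a1 by 0.95, Col6a2 by 0.94, Col14a1 by 0.91, Col6a3 by 0.82, Col6a1 by 0.81, Fbln1 by 0.50 and Col9a2 by 0.31. Lamb3 was lower late, at −1.32. Col7a1, Col9a2 and Col11a2 appear here although no window differed from untreated muscle for them by the test.

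The change from untreated muscle also differed between 8 to 10 d and 20 to 40 d in 20 genes. Over all probe sets 16.3% were lower and 14.6% higher from 20 to 40 d. On the log2 scale the fibrillar chains that fell were Col5a2 at −1.74, Col5a1 at −1.14, Col3a1 at −0.86, Col11a2 at −0.75 and Col1a2 at −0.60. Network chains that fell were Col8a1 at −1.39, Col4a1 at −0.72 and Col4a2 at −0.49. Basement membrane genes that fell were Nid2 at −1.16, Col18a1 at −1.03, Lamc1 at −0.59, Hspg2 at −0.57 and Lama4 at −0.50, and other genes that fell were Col6a3 at −1.55, Col6a2 at −1.07, Col14a1 at −0.92, Fbn2 at −0.88, Col6a1 at −0.81 and Fbln2 at −0.39. Col4a5 was higher from 20 to 40 d, by 0.75. No explanation of these differences was tested.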

How the results depend on the processing

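Of 175 calls of a gene in a comparison, 70 were lost under at least 1 of 14 settings or with 1 array left out, and 14 changed sign; 47 were lost with 1 array left out, 42 of them without an untreated array. The causes were not tested beyond what each setting does. By setting, 26 calls were lost with 30 and 40 d as the baseline and 16 with probe sets averaged. Another 16 were lost without the times at which both titles carry the same number. These included Hspg2 and Lama4 from 3 to 4.5 d and Nid1 and Lamc1 from 11 to 16 d. With 30 and 40 d in place of the untreated arrays, log2 changes turned from 12 h to 2 d for Col5a2 (−0.18), Col8a1 (−0.061) and Fbln2 (−0.52), from 3 to 4.5 d for Col15a1 (−0.10), Fbln1 (−0.47), Hspg2 (−0.062) and Lama4 (−0.064), and for Fbln1 from 5 to 7.5 d (−0.051) and 11 to 16 d (−0.00). That setting gave 3 rises and 20 falls from 12 h to 2 d, 13 rises from 3 to 4.5 d, and 0 falls in the next 3 windows. Without the low beta-actin arrays Col5a2 (−0.002) and Fbln2 (−0.50) turned from 12 h to 2 d, where 3 genes rose, and falls were 0 from 5 to 7.5 d and 11 to 16 d. With probe sets averaged Col1a2 turned from 3 to 4.5 d (−0.01) and Lama5 from 20 to 40 d (−0.26), and without untreated replicate 2 Col4a1 turned from 3 to 4.5 d (−0.01), where its range with 1 array left out was −0.01 to 0.85.

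Counts of falls were small and moved easily. From 3 to 4.5 d they were 5 with quantile normalization or 2 times the floor, 7 with median scaling and 6 without the times at which both titles carry the same number (a shared code number). From 5 to 7.5 d they were 0 at 0.5 times the floor and without those times. From 8 to 10 d they were 2 with quantile normalization, median scaling, 2 times the floor or the replicate block by code number, and 0 at 0.5 times the floor, without the filter, with a variance trend or with code letters as a block. The replicate block lost 3 calls in all. From 11 to 16 d they were 0 at 0.5 times the floor, without times of a shared code number and with moved window edges, which also gave 2 falls from early to late. Rises from 8 to 10 d to 20 to 40 d were 2 with quantile normalization, median scaling, 2 times the floor, code letters or no low beta-actin arrays, and 0 at 0.5 times the floor or with moved edges. On version A, 1 gene fell at 4 d with 2 times the floor or no filter, and 5 and 6 rose from 4 to 10 d at 0.5 times the floor and with no filter. Among lists, median scaling gave 1 receptor that rose, 2 fibroblast, 5 fibre and 3 Schwann markers that fell, quantile normalization 0 fibroblast and 2 Schwann markers that fell, and 2 times the floor 0 early myotube rises. With moved edges Col1a1 against Col1a2 (−0.29), Col1a1 against Col4a1 (−0.58), Lama2 against Lama4 (0.25) and Nid1 against Nid2 (0.27) were not called, nor were Lama2 against Lama4 without shared code numbers (0.31) or Col1a1 against Col4a1 with averaged probe sets (−0.51). Col5a1 against Col5a2 was called with quantile normalization (0.38) and without shared code numbers (0.50). With 1 array left out, falls ranged from 3 to 8 (12 h to 2 d; 3 without untreated replicate 1), 1 to 5 (3 to 4.5 d; 1 without untreated replicate 2 and 5 without 3.5 d replicate 1), 0 to 1, 0 to 2 and 0 to 1 in the next 3 windows, and rises from 20 to 40 d from 9 to 19. Late rises from 8 to 10 d ranged from 0 to 2, version A falls at 4 d from 0 to 2 and its rises from 4 to 10 d from 5 to 12. Differences ranged from −0.29 to −0.18 for Col1a1 against Col3a1, 0.32 to 0.53 for Col5a1 against Col5a2 and 0.28 to 0.42 for Lama2 against Lama4.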
